A study of Mus musculus with 32 samples.

Results

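The 10 genes described here encode the TGF-β ligands (Tgfb1, Tgfb2 and Tgfb3), their receptors (Tgfbr1, Tgfbr2 and Tgfbr3) and the latent TGF-β binding proteins (Ltbp1, Ltbp2, Ltbp3 and Ltbp4), chosen by gene symbol among the 17757 genes of the count table. They were measured by polysome profiling, in which a sucrose gradient separates mRNAs with many bound ribosomes from those with few, in spheroids of 4T1, a mouse triple-negative mammary carcinoma cell line. The spheroids grew for 5 days in a medium modelled on the nutrients of the lung. In 3 of the 4 conditions the medium was given 700 μM aspartate, with cells carrying a non-targeting scramble shRNA (ASP shSCR), an shRNA against Grin2d, a subunit of the NMDA receptor (ASP shGRIN2D), or an shRNA against Dhps, the enzyme of the first step of hypusine formation on eIF5A (ASP shDHPS). The other condition used scramble cells without aspartate added to the medium (NoASP shSCR), so neither gene was silenced without aspartate. All cells were lentivirally transduced, puromycin-selected polyclonal populations of 1 line. There were 4 independent pellets of spheroids per condition, each split into a polysomal library (mRNA with more than 3 ribosomes) and a sub-polysomal library (fewer than 3), 32 libraries with 12870563 to 25639437 counts each (median 18168765).

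TGF-β is made as a precursor that is cut inside the cell, after which the mature dimer stays wrapped in its own propeptide. This latent complex binds a latent TGF-β binding protein, which anchors it in the extracellular matrix until integrins or proteases release the ligand. Free ligand binds TGFBR2, which recruits and phosphorylates TGFBR1, and TGFBR1 then phosphorylates SMAD2 and SMAD3. TGFBR3 (betaglycan) is a co-receptor that presents ligand, TGF-β2 in particular. In mammary carcinoma the pathway is known for its part in invasion and matrix deposition.

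The small ribosomal subunit loads near the cap of an mRNA and scans to the start codon, and the bases around this codon bear on its recognition. The 20 bases around it are therefore given for the 7 members whose polysomal to sub-polysomal ratio differed from 0 in at least 3 of the 4 conditions or which had the highest level (GENCODE M21 transcripts, GRCm38, mRNA strand, 5′ to 3′). The capitals mark the ATG.
Tgfb1: gcctcccccATGccgccctc
Tgfb3: ggctcacacATGaagatgca
Tgfbr1: ggcgggaccATGgaggcggc
Tgfbr2: ggggctgccATGggtcgggg
Ltbp1: ctgcccgcgATGgcgggagc
Ltbp3: cggccccggATGcccgggcc
Ltbp4: cccgacacgATGcgccggcc
These ATGs lie at chr7:25687869-25687871 on the plus strand (Tgfb1), chr12:86077930-86077932 on the minus strand (Tgfb3), chr4:47353312-47353314 on the plus strand (Tgfbr1), chr9:116175035-116175037 on the minus strand (Tgfbr2), chr17:75005886-75005888 on the plus strand (Ltbp1), chr19:5742241-5742243 on the plus strand (Ltbp3) and chr7:27337565-27337567 on the minus strand (Ltbp4). A purine stood 3 bases before the start codon in 7 of the 10 members, and in 85.6% of the 12868 transcripts with enough leader sequence. The exceptions were Tgfb1, Tgfb3 and Ltbp3. The 5′ UTR of Tgfb1 was 867 bases long without any ATG, that of Tgfb3 was 1109 bases long with 8 ATGs and that of Ltbp3 was 988 bases long with 3 ATGs. The median 5′ UTR of 13318 genes had 166 bases, and 49.7% of them held an ATG. Tgfbr1 and Tgfbr2 had the longest 3′ UTRs among the members, with 4154 and 6085 bases, and those of Tgfb1 and Ltbp4 had 135 and 260 bases. These features describe annotated transcripts and were not tested against the ratios.

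The labels and the libraries were checked first. Of 11 mammary carcinoma epithelial markers, 10 were in the table and all 10 averaged over 10 CPM (counts scaled to library size with TMM factors). The most abundant was the keratin Krt8 with 1361 CPM, and the summed level was 2418 to 9115 CPM per library. Of 7 immune cell markers 3 were in the table, with Cd68 at 11.6 CPM, and the pan-leukocyte marker Ptprc at 0.28. The only endothelial marker of 5 in the table, Pecam1, averaged 0.21 CPM. Of 7 fibroblast markers 4 were in the table, with Thy1 at 138 CPM, Pdgfra at 15.5, Pi16 at 0.12 and Col14a1 at 0.06. Pdgfrb, Lum and Dpt were not in it. Dhps had 153 to 263 counts in the polysomal libraries of ASP shDHPS and 335 to 1023 in those of ASP shSCR, and its level fell in ASP shDHPS in both fractions (ASP shSCR minus ASP shDHPS 2.01 with a standard error of 0.16 and an edgeR adjusted p of 1.11e-08 in the sub-polysomal libraries, 1.64 with a standard error of 0.23 and an adjusted p of 0.0167 in the polysomal ones). The polysomal call was lost without ASP shSCR replicate 2 or ASP shDHPS replicate 1 or 3 (edgeR adjusted p = 0.0546, 0.0963 and 0.111), and when the compared conditions were fitted alone (1.65, adjusted p = 0.1085). Grin2d had only 21 to 56 counts per library in ASP shGRIN2D and 56 to 126 in ASP shSCR. The libraries of these conditions did not overlap in CPM in either fraction, but the log2 differences of 0.88 and 1.14 did not pass the threshold (edgeR adjusted p = 0.2325 and 0.2627). Of all genes, 2.92% in the sub-polysomal and 1.46% in the polysomal libraries were likewise higher in every ASP shSCR library. Without ASP shSCR replicate 1, the pellet described next, the Dhps differences were 1.98 and 1.78 (edgeR adjusted p = 7.88e-08 and 0.00182) and those of Grin2d 0.91 and 1.08 (adjusted p = 0.313 and 0.662).

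One library stood apart from its label. The profile of each library over 11046 genes was placed between the mean sub-polysomal (0) and mean polysomal (1) profiles of the conditions other than its own. The polysomal library of ASP shSCR replicate 1 scored only 0.3725. Scores were 0.777 to 1.27 in the remaining 15 polysomal libraries, and −0.114 to 0.162 in all 16 from below polysomes. Most fitted values that rest on ASP shSCR are therefore followed by those without this pellet, whereas ranges over libraries include it unless stated.

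Ltbp3 and Tgfb1 were the most abundant members per transcript length. In the sub-polysomal libraries, the median level was 141 CPM per kilobase for Ltbp3 (81.9 to 209 over 16 libraries) and 124 for Tgfb1 (103 to 177). Tgfbr2 followed with a median of 33.2 CPM per kilobase (24.2 to 41.1), and its range overlapped with neither Tgfb1 nor Tgfbr1. Tgfbr1 (16.2), Tgfb3 (15.3), Ltbp4 (14.4) and Ltbp1 (10.7) formed a group whose ranges overlapped, followed by Ltbp2 (2.20), Tgfbr3 (0.81) and Tgfb2 (0.23). In the polysomal libraries the order changed. Ltbp3 had a median of 187 CPM per kilobase (97.5 to 273), Tgfb1 44.6 (34.8 to 149), Ltbp4 28.7, Tgfb3 22.0, Ltbp1 21.1, Tgfbr2 14.2 and Tgfbr1 9.45, so that Ltbp4, Tgfb3 and Ltbp1 had higher medians than both signalling receptors there. Tgfb2 had 4 to 48 counts and Tgfbr3 25 to 154 counts per library, and their ratios are accordingly imprecise.

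**Figure D1:**
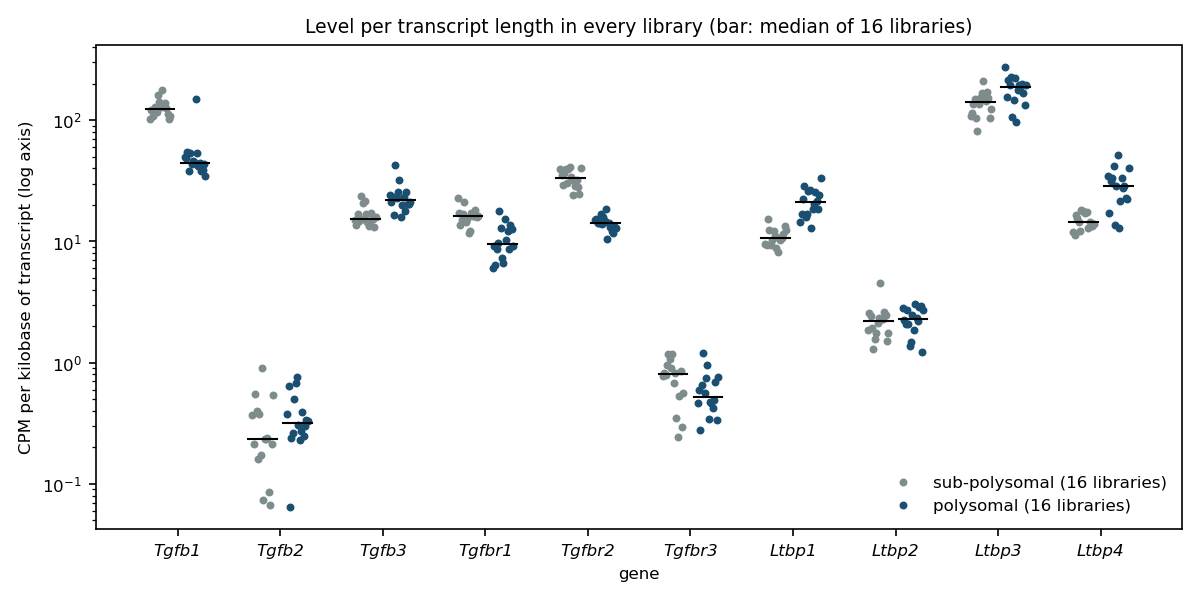
Level of each gene in CPM per kilobase of transcript (log axis) in the 16 sub-polysomal (grey) and 16 polysomal (blue) libraries, with bars at the medians. Ltbp3 and Tgfb1 lie highest, Tgfb2 and Tgfbr3 lowest, and the single high polysomal point of Tgfb1 (149 CPM per kilobase) is ASP shSCR replicate 1.

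Relative to the typical mRNA, Tgfb1 had a lower level on polysomes than below them in all 4 conditions, and Tgfb3 had a higher one in 3. The amount of RNA in each fraction was not measured in these counts, so a ratio gives no share of a gene's molecules. In ASP shSCR, Tgfb1 had 279, 384, 285 and 301 CPM in the sub-polysomal libraries of replicates 1 to 4, and 323, 116, 90.7 and 96.1 CPM in the polysomal ones. Replicate 1 was alone in having a higher scaled level of Tgfb1 on polysomes than below them. Polysomal Tgfb1 was 75.6 to 93.9 CPM in NoASP shSCR, 95.2 to 117 in ASP shGRIN2D and 82.3 to 119 in ASP shDHPS, and sub-polysomal Tgfb1 was 224.5 to 275, 254 to 352 and 225 to 264 CPM in the same order. The pellet log2 ratio of polysomal to sub-polysomal level was therefore below 0 in 15 of 16 pellets. It was 0.21, −1.72, −1.65 and −1.64 in ASP shSCR and between −1.80 and −0.995 in the 12 other pellets.

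In the fit of all genes, the Tgfb1 log2 ratio was −1.22 in ASP shSCR (standard error 0.24, edgeR adjusted p = 0.00018), −1.54 in NoASP shSCR (0.23, adjusted p = 5.34e-06), −1.53 in ASP shGRIN2D (0.23, adjusted p = 5.36e-06) and −1.25 in ASP shDHPS (0.23, adjusted p = 7.75e-05). Only 17.5% of all genes had a lower ratio in ASP shSCR, and 14.5%, 15.02% and 20.5% in the other conditions. Without replicate 1 the ratio of ASP shSCR was −1.74 (standard error 0.19, edgeR adjusted p = 1.08e-08), the lowest of the 4 conditions. With it, ASP shSCR had the highest value. The SD over pellets in ASP shSCR was 0.94 with replicate 1 and 0.04 without it.

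The pellet log2 ratio of Tgfb3 was −0.06, 0.46, 0.79 and 0.29 in ASP shSCR, 0.41 to 0.61 in NoASP shSCR, 0.29 to 0.86 in ASP shGRIN2D and 0.16 to 0.69 in ASP shDHPS. All but ASP shSCR replicate 1 were above 0. The fitted ratio passed the threshold in NoASP shSCR (0.50, edgeR adjusted p = 0.0148), ASP shGRIN2D (0.58, adjusted p = 0.00494) and ASP shDHPS (0.49, adjusted p = 0.0184), each with a standard error of 0.165, but not in ASP shSCR (0.37, adjusted p = 0.0808). Without replicate 1 it did there too (0.45, standard error 0.18, edgeR adjusted p = 0.0425), as it did over 16 pellets with filterByExpr (adjusted p = 0.0409) and with TMM factors computed within each fraction (0.56, adjusted p = 0.00494). Leaving out 1 pellet of the condition ended the Tgfb3 call in NoASP shSCR without replicate 1 or 3 (edgeR adjusted p = 0.0612 and 0.0664), in ASP shGRIN2D without replicate 1 (0.0527) and in ASP shDHPS without replicate 1, 2 or 3 (0.0921, 0.0798 and 0.051). Tgfb2 had fitted ratios of 0.69, 0.79, 0.67 and −0.42 in ASP shSCR and NoASP shSCR, then ASP shGRIN2D and ASP shDHPS with standard errors of 0.57 to 0.60, and none passed (edgeR adjusted p = 0.314 to 0.619). Without replicate 1, Tgfb2 had 0.24 in ASP shSCR (adjusted p = 0.813).

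As a result the ligands were mixed differently in the fractions. Per transcript length, Tgfb1 made up 88.2% ± 1.9 (SD, n = 16) of ligand mRNA in the sub-polysomal libraries and 66.8% ± 7.8 (SD, n = 16) in the polysomal ones, where Tgfb3 made up 32.6% ± 7.8 (SD, n = 16). Tgfb2 was below 1% of ligand mRNA in every library. In the polysomal library of ASP shSCR replicate 1 the share of Tgfb1 was 90.1%, above the 55.4% to 72.5% of the other 15 polysomal libraries. The polysomal share of Tgfb3 was 25.3% ± 11.01 in ASP shSCR, 35.9% ± 3.5 in NoASP shSCR, 38.7% ± 5.0 in ASP shGRIN2D and 30.6% ± 1.4 in ASP shDHPS (SD, n = 4 each). Without replicate 1 it was 30.5% ± 4.4 (SD, n = 3) in ASP shSCR. These shares follow from the levels already given and were not tested.

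**Figure D2:**
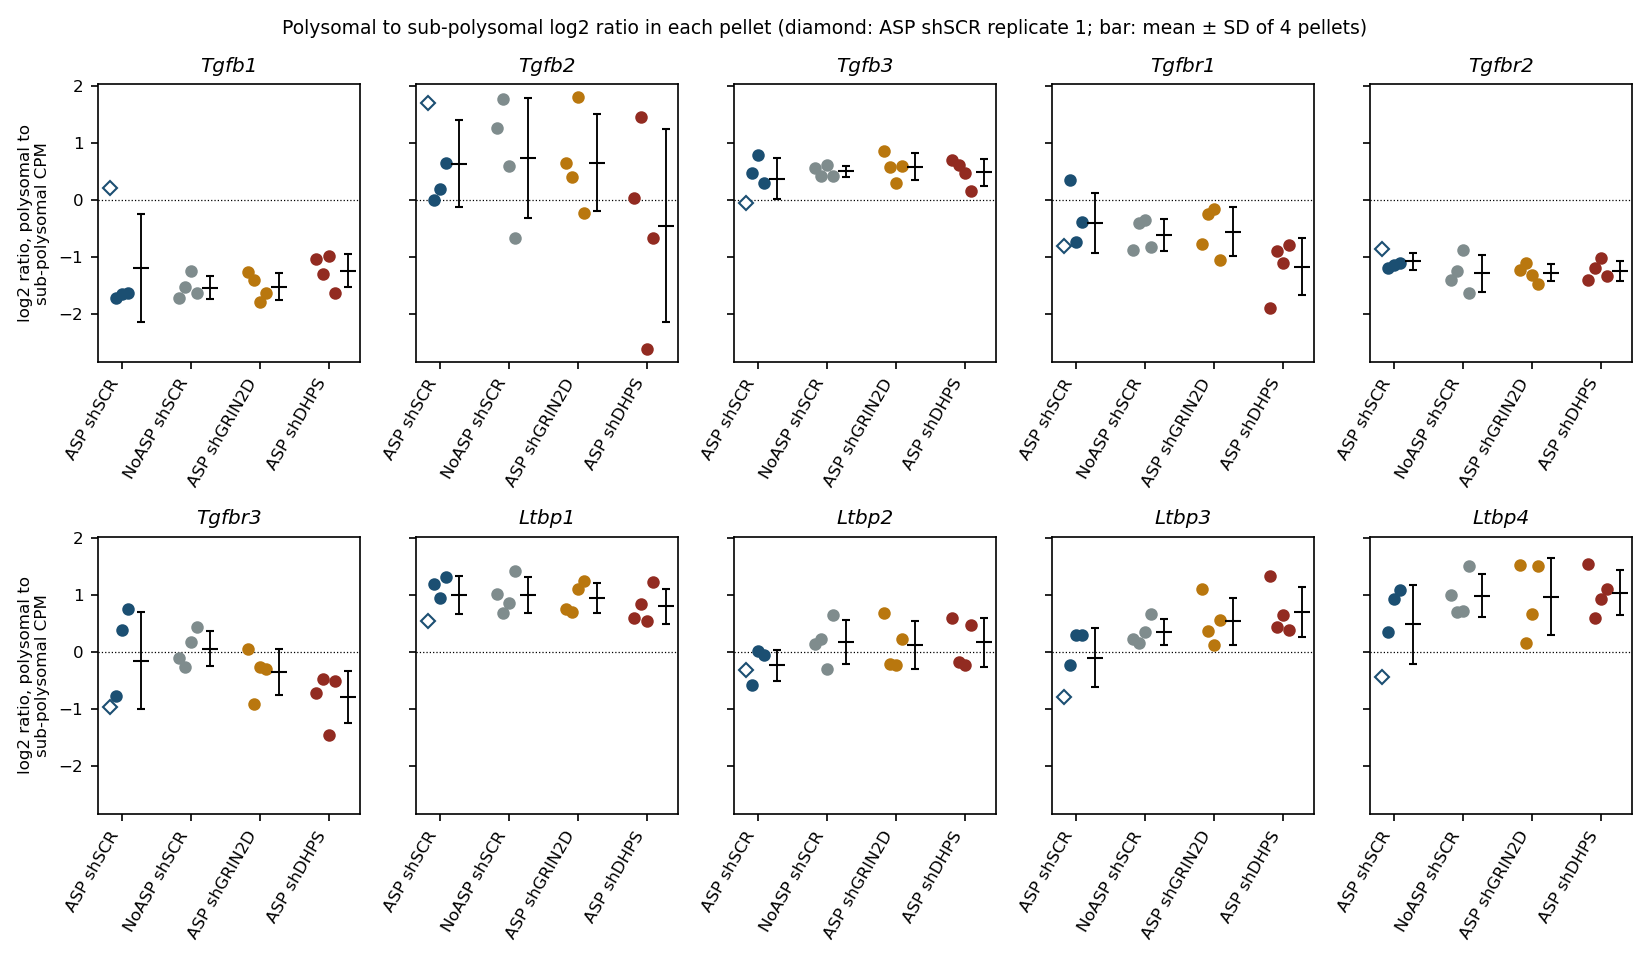
Log2 ratio of polysomal to sub-polysomal CPM of each gene (y axis) in each pellet of the 4 conditions (x axis), with ASP shSCR replicate 1 as an open diamond and the mean ± SD of 4 pellets as bars. Tgfb1 and Tgfbr2 lie below 0 except for Tgfb1 in that pellet, at 0.21, and Ltbp1 lies above 0 in all 16 pellets.

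Relative to the typical mRNA, Tgfbr2 had a lower level on polysomes than below them in all 4 conditions, and Tgfbr1 in 3. The Tgfbr2 pellet log2 ratio was −0.87, −1.21, −1.15 and −1.11 in ASP shSCR. It was −1.65 to −0.88 in NoASP shSCR, −1.47 to −1.11 in ASP shGRIN2D and −1.42 to −1.03 in ASP shDHPS, below 0 in 16 of 16 pellets and with overlapping ranges. The fitted ratios were −1.09, −1.30, −1.28 and −1.25 in that order, each with a standard error of 0.17 and an edgeR adjusted p of 9.71e-06 or less. For Tgfbr2, ASP shSCR without replicate 1 gave −1.22.

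Tgfbr1, the kinase that passes the signal to SMAD2 and SMAD3, had a pellet log2 ratio of −0.82, 0.34, −0.74 and −0.40 in ASP shSCR. In NoASP shSCR it was −0.89, −0.40, −0.35 and −0.83, and in ASP shGRIN2D −0.78, −0.25, −0.16 and −1.06. In ASP shDHPS it was −1.91, −0.90, −1.11 and −0.79, so that 3 of these pellets lay below every pellet of ASP shSCR. Behind this were 34.8 to 52.8 CPM of polysomal Tgfbr1 in ASP shDHPS against 38.6, 88.6, 59.4 and 70.4 CPM in ASP shSCR, and overlapping sub-polysomal levels (78.8 to 131 and 67.9 to 99.5 CPM). The fitted ratio was −0.41 in ASP shSCR (standard error 0.21, edgeR adjusted p = 0.132), −0.62 in NoASP shSCR (0.21, adjusted p = 0.0168), −0.56 in ASP shGRIN2D (0.21, adjusted p = 0.0305) and −1.18 in ASP shDHPS (0.21, adjusted p = 5.19e-05). The Tgfbr1 call was lost without replicate 1 or 4 in NoASP shSCR (edgeR adjusted p = 0.0973 and 0.0841) and in ASP shGRIN2D (0.112 and 0.21), and without replicate 2 the ratio passed in ASP shSCR (−0.70, adjusted p = 0.0124). It was also lost with TMM factors computed within each fraction in NoASP shSCR and ASP shGRIN2D (edgeR adjusted p = 0.0520 and 0.0866) and without the pellet term in ASP shGRIN2D (0.0868). In ASP shSCR, DESeq2 called it (−0.49, adjusted p = 0.0406), and edgeR without replicate 1 did not (−0.33, adjusted p = 0.264).

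The co-receptor Tgfbr3 had a pellet log2 ratio of −0.96, −0.77, 0.38 and 0.75 in ASP shSCR, on both sides of 0. Its fitted ratio passed the threshold in ASP shDHPS alone (−0.80, standard error 0.29, edgeR adjusted p = 0.0244), and it was −0.19 in ASP shSCR (0.02 without replicate 1), 0.05 in NoASP shSCR and −0.36 in ASP shGRIN2D. The call was lost without ASP shDHPS replicate 1 or 3 (edgeR adjusted p = 0.0569 and 0.16), with TMM factors computed within each fraction (0.0557) and without the pellet term (0.0702). That a ratio passed in 1 condition does not show a difference between conditions, which is tested below.

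**Figure D3:**
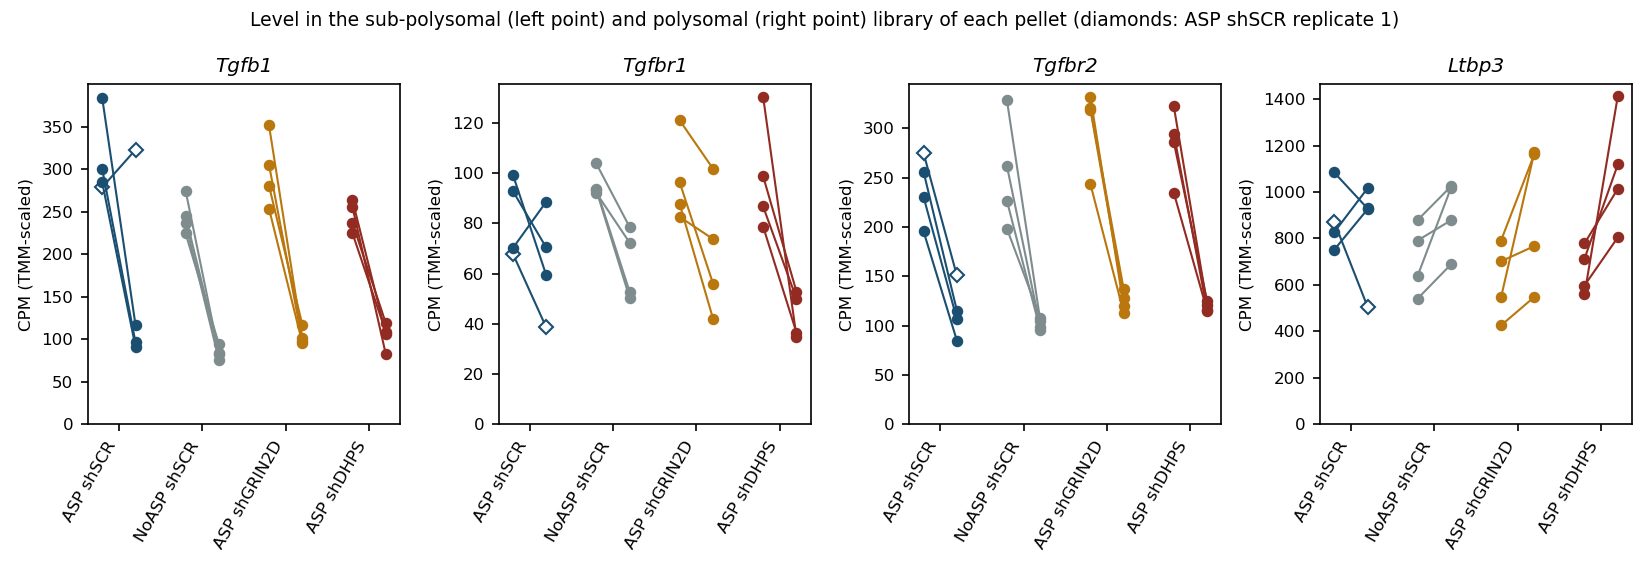
TMM-scaled CPM of Tgfb1, Tgfbr1, Tgfbr2 and Ltbp3 (y axes, from 0) in the sub-polysomal (left point) and polysomal (right point) library of each pellet, joined by a line, with ASP shSCR replicate 1 as open diamonds. In that pellet Tgfb1 went from 279 CPM below polysomes to 323 on them and Ltbp3 from 872 to 506, opposite to most other pellets.

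Among the latency proteins, the ratio was above 0 and past the threshold in all 4 conditions for Ltbp1, in 3 for Ltbp4, in 2 for Ltbp3 and in none for Ltbp2. Ltbp1, which binds the latent complex and tethers it to the matrix, had a pellet log2 ratio of 0.55, 1.19, 0.95 and 1.32 in ASP shSCR and of 0.55 to 1.42 in the other 12 pellets. It was above 0 in all 16, and its fitted ratio was 1.00, 1.00, 0.95 and 0.80 in ASP shSCR and NoASP shSCR, then ASP shGRIN2D and ASP shDHPS (standard error 0.18, edgeR adjusted p of 0.000579 or less). Without replicate 1 it was 1.09 in ASP shSCR (adjusted p = 2.49e-05). Ltbp4 had a pellet log2 ratio of −0.44, 0.34, 0.93 and 1.09 in ASP shSCR and of 0.16 to 1.55 elsewhere. The fitted ratio of Ltbp4 was 0.98, 0.97 and 1.04 in NoASP shSCR, ASP shGRIN2D and ASP shDHPS (standard error 0.24, edgeR adjusted p = 0.00136, 0.00174 and 0.000822). In ASP shSCR it was 0.49 (standard error 0.24, edgeR adjusted p = 0.118), and without replicate 1 it was 0.73 (0.24, adjusted p = 0.0136). With TMM factors computed within each fraction it passed there over all pellets (0.68, adjusted p = 0.0232).

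Ltbp3, the most abundant member, had 872, 1085, 826 and 751 CPM in the sub-polysomal and 506, 929, 1016 and 926 CPM in the polysomal libraries of ASP shSCR. Its pellet log2 ratio was −0.79, −0.22, 0.30 and 0.30 there, 0.15 to 0.67 in NoASP shSCR, 0.13 to 1.10 in ASP shGRIN2D and 0.38 to 1.34 in ASP shDHPS. The pellets of ASP shSCR and ASP shDHPS did not overlap, and 2.15% of all genes likewise had every ASP shSCR pellet below every ASP shDHPS pellet. The fitted ratio was −0.10 in ASP shSCR (standard error 0.21, edgeR adjusted p = 0.758), 0.35 in NoASP shSCR (0.21, adjusted p = 0.198), 0.54 in ASP shGRIN2D (0.21, adjusted p = 0.0423) and 0.70 in ASP shDHPS (0.21, adjusted p = 0.00898). The call in ASP shDHPS was lost without its replicate 1 (0.49, edgeR adjusted p = 0.108), and the call in ASP shGRIN2D was lost in 6 refits with 1 pellet left out (without its replicates 1, 2 or 4, NoASP shSCR replicates 1 or 3, or ASP shDHPS replicate 3, edgeR adjusted p = 0.0508 to 0.294). That call was also lost with DESeq2 size factors (0.0779) and without the pellet term (0.0598). Its sign in ASP shSCR depended on scaling and on 1 pellet, with 0.09 when TMM factors were computed within each fraction and 0.06 without replicate 1. Ltbp2, which does not bind latent TGF-β, had fitted ratios of −0.24, 0.18, 0.12 and 0.17 (standard error 0.20), and none passed (edgeR adjusted p = 0.383 to 0.676). Without replicate 1 it was −0.28 in ASP shSCR (adjusted p = 0.369). Per transcript length, Ltbp3 made up 82.7% ± 2.8 (SD, n = 16) of the latency protein mRNA in the sub-polysomal and 77.3% ± 3.3 (SD, n = 16) in the polysomal libraries.

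By count, 3 of the 10 members had a ratio different from 0 in ASP shSCR (1 higher, 2 lower), beside 39.7% of all genes. The number was 6 in NoASP shSCR (3 higher, 3 lower), beside 44.3% of genes, 7 in ASP shGRIN2D (4 higher, 3 lower), beside 43.5%, and 8 in ASP shDHPS (4 higher, 4 lower), beside 43.1%. Without ASP shSCR replicate 1 the count in ASP shSCR was 5 (3 higher, 2 lower), beside 40.32% of genes. Leaving out replicate 1 of the condition itself lowered the count to 4 in ASP shGRIN2D (6542 genes passed, from 7722) and 5 in ASP shDHPS (6373 genes, from 7654). The median log2 ratio of the members was −0.14, 0.27, 0.33 and −0.13 in ASP shSCR and NoASP shSCR, then ASP shGRIN2D and ASP shDHPS, and that of all genes −0.04, 0.00, 0.00 and −0.09. The median of the members in ASP shSCR changed sign to 0.0431 without replicate 1, and that of all genes was then −0.025. In ASP shSCR 52.4% of the genes called were higher on polysomes, 63.8% were with TMM factors computed within each fraction, and 47.7% were with DESeq2 size factors. TMM within each fraction moved the median of all genes by 0.17, 0.12, 0.10 and 0.11 on the log2 scale in the 4 conditions.

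The study compared the ratio of ASP shSCR with that of each other condition to ask which mRNAs change translation with aspartate, Grin2d or Dhps. These comparisons share the ASP shSCR pellets. By edgeR no member passed the threshold in any of them over 16 pellets, and DESeq2 called 1, Ltbp3 for ASP shSCR minus ASP shDHPS. Between ASP shSCR and NoASP shSCR, 0% of all genes passed by edgeR (343 genes, 1.93%, and 0 members had an unadjusted p under 0.05) and 0 genes passed by DESeq2. The member differences ran from −0.50 (Ltbp4, standard error 0.34) to 0.32 (Tgfb1, 0.33). Without replicate 1 that of Tgfb1 was −0.15 (standard error 0.24), and that of Ltbp4 was −0.21 (0.31).

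Between ASP shSCR and ASP shGRIN2D, again 0% of all genes passed by edgeR (571 genes, 3.22%, and 1 member, Ltbp3, had an unadjusted p under 0.05) and 0 genes by DESeq2. Ltbp3 differed by −0.64 (standard error 0.30, edgeR adjusted p = 1.0), and −0.45 without replicate 1. For Tgfb1 it was 0.31 (standard error 0.33) with that pellet and −0.18 (0.24) without it.

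Between ASP shSCR and ASP shDHPS 0.208% of all genes passed by edgeR (37 genes, all higher in ASP shSCR) and 664 by DESeq2. Among the members, Tgfbr1 differed by 0.77 (standard error 0.30, unadjusted p = 0.0155, edgeR adjusted p = 0.244) and Ltbp3 by −0.80 (0.30, unadjusted p = 0.0136, adjusted p = 0.23), the 2 members with an unadjusted p under 0.05, beside 2416 genes or 13.6% of all. By DESeq2, Ltbp3 passed (−0.85, adjusted p = 0.0483). Without ASP shSCR replicate 2, the Tgfbr1 ratio of ASP shSCR was −0.70, nearer to the −1.18 of ASP shDHPS over all pellets. Without ASP shSCR replicate 1, edgeR gave a difference of 0.87 for Tgfbr1 (standard error 0.30, adjusted p = 0.179) and −0.61 for Ltbp3 (0.28, adjusted p = 0.337). Tgfb1 differed by 0.02 (standard error 0.33) with that pellet and by −0.46 (0.24, edgeR adjusted p = 0.394) without it. Tgfbr2 differed by 0.16 (0.23) and 0.05 (0.24). Between the silenced conditions, ASP shDHPS minus ASP shGRIN2D, 0.00563% of genes passed (1 gene), 6.41% and 1 member had an unadjusted p under 0.05, and the member with the lowest p was Tgfbr1 with −0.61 (standard error 0.30, edgeR adjusted p = 0.773).

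**Figure D4:**
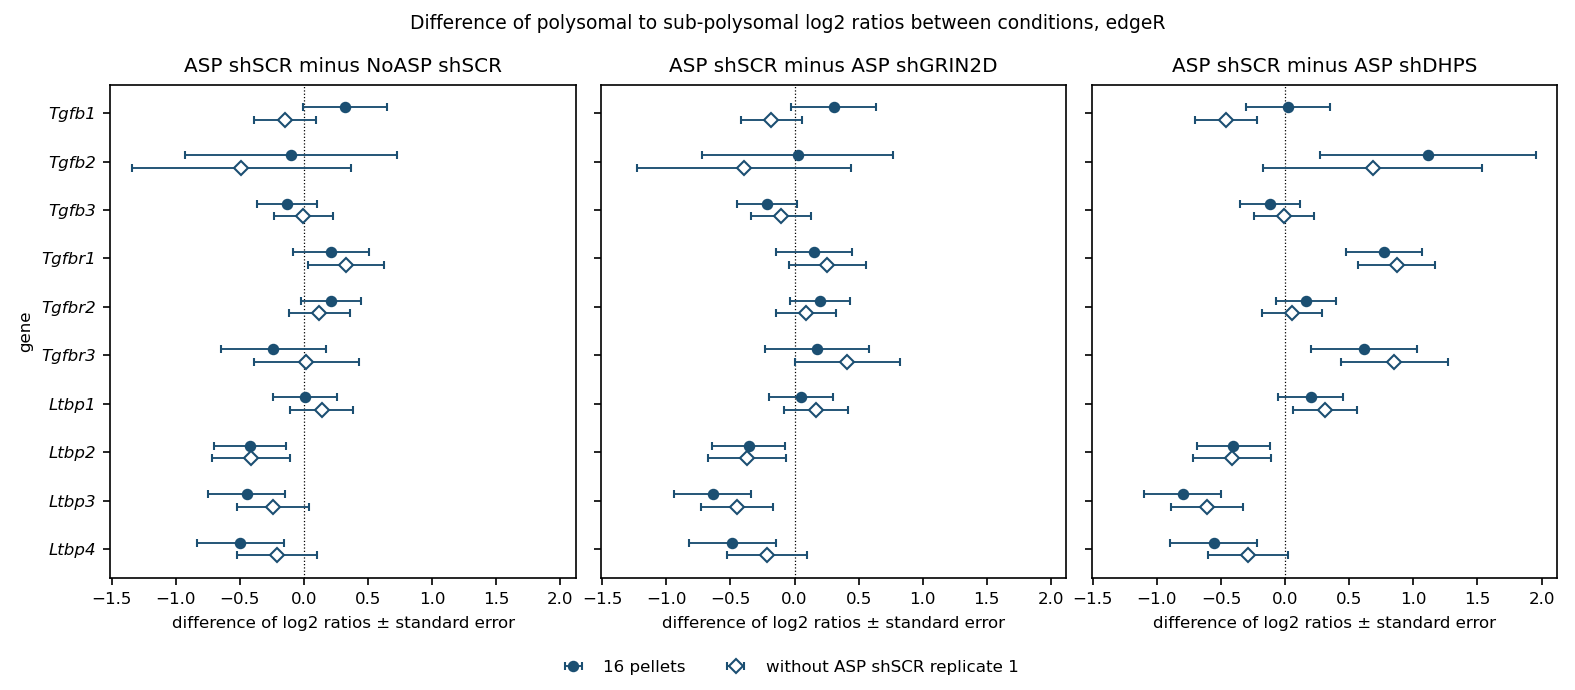
Difference of the polysomal to sub-polysomal log2 ratio between ASP shSCR and each other condition (x axis, ± standard error, edgeR) for each gene (y axis), over 16 pellets (filled circles) and without ASP shSCR replicate 1 (open diamonds). Leaving out that pellet moved Tgfb1 from 0.32 to −0.15, from 0.31 to −0.18 and from 0.02 to −0.46 in the 3 comparisons.

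Levels within a fraction were compared as well. In bulk libraries fewer cells of a type and less RNA per cell cannot be told apart. In the sub-polysomal libraries, 0% of all genes passed by edgeR between ASP shSCR and NoASP shSCR (871 genes, 4.91%, and 3 members with an unadjusted p under 0.05, 1 gene by DESeq2), 0.315% between ASP shSCR and ASP shGRIN2D, 1.41% between ASP shSCR and ASP shDHPS and 0.726% between ASP shDHPS and ASP shGRIN2D. In the polysomal libraries the shares were 0% (1376 genes, 7.75%, and 1 member with an unadjusted p under 0.05, 1 gene by DESeq2), 0.0169%, 0.169% and 0.0845%. Leaving out ASP shSCR replicate 1 changed these shares to 0%, 0.24%, 0.77% and 0.72% in the sub-polysomal and 0%, 0.04%, 0.74% and 0.20% in the polysomal libraries, in the same order of comparisons, and 0 members passed. By edgeR and by DESeq2, 0 of the 10 members passed in any of these 8 comparisons. By edgeR the unadjusted p was under 0.05 for 4 members below and 3 on polysomes against ASP shGRIN2D, beside 11% and 9.06% of all genes. Against ASP shDHPS it was so for 3 and 2 members (16% and 16.4% of genes), and in the silenced pair for 1 and 3 (10.7% and 9.4%).

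Over all libraries the member nearest to the threshold by edgeR was Ltbp2. Its sub-polysomal level was 15.8, 30.7, 15.6 and 15.5 CPM in ASP shSCR and 8.78 to 14.3 CPM in ASP shGRIN2D, without overlap (2.92% of all genes were likewise higher in every ASP shSCR library), with a log2 difference of 0.78 (standard error 0.23, edgeR adjusted p = 0.157), or 0.88 without replicate 1 (0.24, adjusted p = 0.1545). Replicate 2 of ASP shSCR stood apart at 30.7 CPM, and without it the Ltbp2 difference was 0.45 (0.21, edgeR adjusted p = 0.5555). Tgfbr3 had 4.16, 4.99, 2.14 and 1.48 CPM in the sub-polysomal libraries of ASP shSCR and 5.51 to 7.16 CPM in those of ASP shGRIN2D. Its libraries did not overlap in either fraction, with 2.57% of genes lower without overlap in the sub-polysomal and 1.22% in the polysomal comparison. For Tgfbr3 this amounted to −1.03 on the log2 scale (standard error 0.31, edgeR adjusted p = 0.1785) and −0.97 (0.33, adjusted p = 0.32). With the replicate number as a block, the sub-polysomal difference of Tgfbr3 was −1.10 and passed (edgeR adjusted p = 0.0410). Without replicate 1 the differences were −1.18 and −0.92 (adjusted p = 0.188 and 0.906). Tgfb3 also had a lower value in ASP shSCR than in ASP shGRIN2D, by −0.44 in the sub-polysomal (standard error 0.15, edgeR adjusted p = 0.235) and −0.62 in the polysomal libraries (0.21, adjusted p = 0.32), and by −0.50 and −0.58 without replicate 1 (adjusted p = 0.286 and 0.879).

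Sub-polysomal Tgfb1 was 1.28-fold that of NoASP shSCR (log2 difference 0.36, standard error 0.15, edgeR adjusted p = 0.848) and 1.28-fold that of ASP shDHPS (0.35, 0.15, adjusted p = 0.257), without overlap of the libraries in either case (1.6% and 4.73% of genes were likewise higher in ASP shSCR). Sub-polysomal Ltbp1 was lower in every ASP shSCR library than in NoASP shSCR, as were 1.66% of genes (−0.33, standard error 0.16, edgeR adjusted p = 0.848). Without replicate 1 these sub-polysomal differences were 0.42 and 0.41 for Tgfb1 (edgeR adjusted p = 0.911 and 0.279) and −0.29 for Ltbp1 (adjusted p = 0.911). Leaving out ASP shSCR replicate 2 instead gave 0.23 and 0.23 for Tgfb1 (standard error 0.15 each) and −0.27 for Ltbp1 (0.17). On polysomes, Tgfb1 differed by 1.04 between ASP shSCR and NoASP shSCR (standard error 0.34, edgeR adjusted p = 0.3635), by 0.75 from ASP shGRIN2D (0.34, adjusted p = 0.507) and by 0.72 from ASP shDHPS (0.34, adjusted p = 0.2965). Without ASP shSCR replicate 1 these polysomal differences were 0.25, −0.01 and −0.05. Polysomal Tgfbr1 differed by 0.605 between ASP shSCR and ASP shDHPS (standard error 0.266, edgeR adjusted p = 0.267), and by 0.73 without replicate 1 (adjusted p = 0.215). Without ASP shSCR replicate 2 it differed by 0.42 (0.27, edgeR adjusted p = 0.473).

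Marker levels in the same libraries were as follows. The summed epithelial markers reached, in sub-polysomal libraries, 4415 ± 1025 CPM in ASP shSCR, 3798 ± 482 in NoASP shSCR, 2581 ± 193 in ASP shGRIN2D and 2721 ± 306 in ASP shDHPS (SD, n = 4 each). The libraries of ASP shSCR (3638 to 5911 CPM) lay above all of ASP shGRIN2D (2418 to 2833) and ASP shDHPS (2460 to 3092), and overlapped those of NoASP shSCR (3212 to 4315). Without replicate 1 the sum in ASP shSCR was 4483 ± 1244 (SD, n = 3). Of these 10 markers, 5 were higher in ASP shSCR than in ASP shDHPS by edgeR (Krt7, Krt19, Krt14, Krt18 and Krt8) and 1 was higher than in ASP shGRIN2D (Krt7). These calls held without replicate 1 for all but Krt8. In the polysomal libraries the sum was 6474 ± 1192 CPM in ASP shSCR, 6788 ± 1843 in NoASP shSCR, 5242 ± 1589 in ASP shGRIN2D and 6436 ± 1521 in ASP shDHPS (SD, n = 4 each), and 0 of the 10 markers passed there in any comparison by edgeR. The 3 immune cell markers, nearly all of it Cd68, summed to 11.4 ± 1.9 CPM in the polysomal libraries of ASP shSCR (12.2 ± 1.3 without replicate 1, SD, n = 3), 11.6 ± 2.6 in NoASP shSCR, 16.2 ± 3.2 in ASP shGRIN2D and 22.4 ± 3.4 in ASP shDHPS (SD, n = 4 each). The range of ASP shSCR (9.08 to 13.2) lay below those of ASP shGRIN2D (13.99 to 20.9) and ASP shDHPS (19.5 to 26.7). The Cd68 difference was −0.44 against ASP shGRIN2D and −0.94 against ASP shDHPS (standard error 0.21 each, edgeR adjusted p = 0.555 and 0.0684). Below polysomes the immune sums were 6.87 to 9.69 CPM on average and their ranges overlapped between ASP shSCR and each other condition. The defining marker Ptprc was at 0.28 CPM and Csf1r at 0.04. The part of the epithelial and immune markers in the values of the members was not tested.

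Other genes of the pathway were counted by list. Of 16 latent complex partners and activators in the table, 6 rose and 2 fell on polysomes in ASP shSCR, with 7 and 1 in NoASP shSCR, 6 and 1 in ASP shGRIN2D and 5 and 1 in ASP shDHPS. The counts in ASP shSCR were 5 and 1 without replicate 1. Itgb1, an integrin β chain, had a log2 ratio of 1.71 in ASP shSCR (standard error 0.19, edgeR adjusted p = 1.28e-07) and Mmp14, a membrane-bound matrix metalloproteinase, 1.18 (0.25, adjusted p = 0.000337). Furin, the protease that cuts the TGF-β precursor, lay on the other side of 0, with −1.565 (standard error 0.175, edgeR adjusted p = 1.88e-07), and it stayed below 0 and past the threshold in all 4 conditions. Median log2 ratios of this list were 0.26, 0.53, 0.61 and 0.34 in ASP shSCR and NoASP shSCR, then ASP shGRIN2D and ASP shDHPS. Without replicate 1, ASP shSCR had a median of 0.37, and Itgb1, Mmp14 and Furin had 1.82, 1.30 and −1.625 there.

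Of 7 other type I receptors and co-receptors, 2 rose and 2 fell on polysomes in ASP shSCR. Acvr1, an activin and BMP type I receptor, had a log2 ratio of 0.82 and the BMP receptor Bmpr1a one of −1.11 there. Bmpr1a fell in all 4 conditions, down to −1.935 in ASP shDHPS (standard error 0.20, edgeR adjusted p = 4.05e-08). Of the 4 other type II receptors, 0 rose and 1 fell in ASP shSCR, NoASP shSCR and ASP shGRIN2D (Acvr2b), and 3 fell in ASP shDHPS (Acvr2b, Bmpr2 and Acvr2a). Without replicate 1 the counts of both receptor lists in ASP shSCR were as given, with 0.87 for Acvr1 and −1.14 for Bmpr1a.

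Of the 14 SMADs and their repressors, 1 rose and 6 fell on polysomes in ASP shSCR, 0 rose and 5 fell in NoASP shSCR, 0 and 7 in ASP shGRIN2D and 0 and 9 in ASP shDHPS. Pmepa1, a TGF-β-induced inhibitor of SMAD signalling, had the lowest values of the named ones, with a log2 ratio of −1.85, −2.30, −2.44 and −2.15 in ASP shSCR and NoASP shSCR, then ASP shGRIN2D and ASP shDHPS. Smurf1, a ubiquitin ligase for SMADs and receptors, had −1.50, −1.34, −1.56 and −1.35. Without replicate 1, 1 of these genes rose and 6 fell in ASP shSCR, with −2.54 for Pmepa1 and −1.62 for Smurf1. Of 19 TGF-β-induced genes in the table, 10 rose, 0 fell and 9 did not pass in ASP shSCR (9, 0 and 10 without replicate 1), with 13, 12 and 12 rising and 0 falling in NoASP shSCR, ASP shGRIN2D and ASP shDHPS. An example was Cdkn1a, a cell cycle inhibitor, at 0.985 in ASP shSCR (standard error 0.209, edgeR adjusted p = 0.000416) and 0.903 without replicate 1. Of 5 other ligands of the superfamily, 0 rose and 2 fell in each condition, Gdf11 in all 4 (−1.42 to −1.88), and of 6 secreted binders 0 passed in ASP shSCR or NoASP shSCR, with Vasn rising in ASP shGRIN2D and ASP shDHPS (0.73 and 0.93). Without replicate 1 the counts of both lists in ASP shSCR were as given. For comparison, 20.8% of all genes were higher and 18.9% lower in ASP shSCR, 23.7% and 20.6% in NoASP shSCR, 23% and 20.4% in ASP shGRIN2D, and 21.8% and 21.3% in ASP shDHPS.

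Between conditions, no listed gene passed for the ratio by edgeR, with or without replicate 1. For levels, the matrix metalloproteinase Mmp9 was higher in the sub-polysomal libraries of ASP shSCR than of ASP shGRIN2D (log2 difference 1.25, standard error 0.23, edgeR adjusted p = 0.00628) and ASP shDHPS (1.42, 0.23, adjusted p = 0.000939). Itgb3 was higher in ASP shSCR than in ASP shDHPS (0.96, 0.22, adjusted p = 0.0241), as was Pmepa1 (0.895, 0.216, adjusted p = 0.0312), whereas the matricellular gene Ccn1 was lower (−1.27, 0.23, adjusted p = 0.00335). Itgb3 was also lower in ASP shDHPS than in ASP shGRIN2D (−1.58, 0.22, adjusted p = 0.000197). On polysomes, Inhba, which encodes an activin subunit, was higher in ASP shSCR than in ASP shDHPS (1.45, 0.26, adjusted p = 0.0333). Without ASP shSCR replicate 1, Mmp9 (1.27 and 1.445, edgeR adjusted p = 0.0126 and 0.00200), Ccn1 (−1.14, adjusted p = 0.0191) and Inhba (1.63, adjusted p = 0.00356) still passed, and the calls of Itgb3 (0.91, adjusted p = 0.0670) and Pmepa1 (0.90, adjusted p = 0.0607) against ASP shDHPS were lost.

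Across the 16 pellets, the genes whose log2 ratio followed that of Tgfb1 most closely were Grk6 (Pearson r = 0.97), Ankrd13b (0.97) and Dgkz (0.97), of 10909 genes with a mean of at least 50 counts. Without ASP shSCR replicate 1 their r was 0.90, 0.92 and 0.88, and the 3 genes most like Tgfb1 over these 15 pellets were Strn4, Ankrd13b and Pip5k1c (0.93, 0.92 and 0.92). For Tgfbr2 they were Adipor2, Fam8a1 and Brap (0.91, 0.86 and 0.86 over 16 pellets, 0.89, 0.86 and 0.84 over 15), and for Ltbp3 Pacsin3, Unc13d and Ndufv1 (0.96, 0.94 and 0.94, then 0.94, 0.93 and 0.91). Ranked over 15 pellets, other genes led for these members, Fam171a1 for Tgfbr2 (0.92) and Trim47 for Ltbp3 (0.97). The pellets share their gradient quality and condition across genes, so these values are a description.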

How the data were processed

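Polysomal and sub-polysomal mRNA of 16 spheroid pellets was sequenced by the authors as stranded, paired-end libraries. For the deposited gene counts, the authors used Trim Galore 0.6.6, STAR 2.6.1 on GRCm39 and Salmon 1.4.0, with values rounded to whole numbers. Genes without counts in at least 3 of 4 replicates of any group had been removed. The authors' own tables of differences (DESeq2 1.34.0) and of gene set tests, with the gene set file, were not used.

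The counts were tested with edgeR 4.0.16 in R 4.3.3 (TMM over 32 libraries, quasi-likelihood F-test, two-sided, Benjamini-Hochberg over 17757 genes, threshold 0.05). The model had a term for each pellet, whose fractions are matched by the study's methods, and the log2 ratio of the fractions in each condition. A ratio of 0 is that of the typical mRNA. Levels were tested among the 16 libraries of a fraction. Standard errors are the log2 value divided by the square root of F. Pellet ratios used a prior count of 2, and levels per kilobase the transcript with the longest complete coding sequence in GENCODE M21 (GRCm38), which matched all 10 members, because no GRCm39 annotation was used here. Alternatives included DESeq2 1.42.0, other scalings and filters, and each pellet left out. On simulated data with 200 genes changed 3-fold in the ratio between ASP shSCR and ASP shDHPS, edgeR recovered 176 with 17 false calls among 17757 genes. The changed genes had a mean of at least 50 counts, and pellets differed only in library size and random spread. Smaller changes, such as those of the members, and changes in genes with fewer counts were not simulated. The simulation therefore gives no recovery rate for them. The members and gene lists were chosen with earlier results of these data known. The genes named were the 10 members, the silenced genes, up to 4 genes per list and comparison with the smallest p among those past the threshold, and the 3 genes most like the most abundant ligand, receptor and latency protein. One gene that this rule names is not reported here.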

Additional observations from a re-analysis of the deposited data

Results flagged for a closer look

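A sample far from the others of its group was found in 8 of 120 groups of 4 values tested (Dixon's criterion), where chance gives about 1 in 20. In ASP shSCR, replicate 1 stood apart for the Tgfb1 pellet log2 ratio (0.2126, the others −1.72 to −1.64), for polysomal Tgfb1 (323.0 CPM, the others 90.7 to 116) and for sub-polysomal Tgfb2 (0.2546 CPM, the others 0.811 to 0.830). In the sub-polysomal libraries of ASP shSCR, Ltbp2 stood apart in replicate 2 (30.7 CPM, the others 15.5 to 15.8) and Ltbp4 in replicate 4 (70.0 CPM, the others 92.2 to 94.8). In NoASP shSCR, sub-polysomal Tgfbr1 stood apart in replicate 2 (103.9 CPM, the others 92.2 to 93.9) and polysomal Ltbp2 in replicate 3 (8.35 CPM, the others 18.5 to 19.7). In ASP shGRIN2D, sub-polysomal Tgfbr2 stood apart in replicate 2 (243.8 CPM, the others 319 to 332).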

How the results depend on the processing

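Of 2304 tested values of the members and silenced genes under an alternative, 2214 kept their direction and side of the threshold, 51 changed sign, 30 lost the call and 9 gained it. The causes were not tested. The number of genes past the threshold for the ratio of ASP shSCR minus ASP shDHPS was 37, and it was 0 with DESeq2 size factors, 188 with filterByExpr, 184 with TMM within each fraction, 664 with DESeq2, 0 with the compared conditions alone and 0 to 159 with 1 pellet left out. For ASP shDHPS minus ASP shGRIN2D it was 1, and 2 with filterByExpr, 37 with DESeq2, 0 with the conditions alone and 0 to 1 with 1 pellet left out. For sub-polysomal levels, DESeq2 gave 1 (from 0, ASP shSCR minus NoASP shSCR), 231 (from 56, minus ASP shGRIN2D), 652 (from 251, minus ASP shDHPS) and 270 (from 129, ASP shDHPS minus ASP shGRIN2D), and leaving out 1 pellet gave 23 to 64, 80 to 370 and 80 to 176 in the last 3. For polysomal levels, DESeq2 gave 1 (from 0), 69 (from 3), 554 (from 30) and 204 (from 15) in the same order, and leaving out 1 pellet gave 0 to 98, 0 to 304 and 2 to 36. Polysomal counts were also 7 with DESeq2 size factors and 0 with the conditions alone (ASP shGRIN2D), and 18 with filterByExpr and 1 with the conditions alone (ASP shDHPS).

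The labels do not say what a replicate number marks, and the numbers were not taken as pairing because not every same-numbered pair correlated over 0.1. In ratio deviations 13 of 24 such pairs did (lowest −0.24, median 0.13, against −0.03 for different numbers), and 10 of 16 pellets were closest to one of their own number. For sub-polysomal levels it was 19 of 24 (median 0.21 against −0.08) and 13 of 16, and for polysomal levels 16 of 24 (0.27 against −0.09) and 11 of 16, a hint of pairing from the data and not from the design. With a replicate block across conditions, 231 genes passed for the ratio of ASP shSCR minus ASP shDHPS. The block gave 195, 758 and 291 genes for sub-polysomal levels (ASP shSCR minus ASP shGRIN2D, minus ASP shDHPS, and ASP shDHPS minus ASP shGRIN2D) and 27, 405 and 103 for polysomal ones, and 1 member passed, sub-polysomal Tgfbr3 against ASP shGRIN2D (−1.10, edgeR adjusted p = 0.0410). Without the pellet term (no replicate block), 0 genes passed in either silenced comparison of ratios, Tgfb2 was 0.18 (ASP shSCR minus NoASP shSCR) and Ltbp4 −0.0320 (ASP shDHPS minus ASP shGRIN2D).

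Members past the threshold in ASP shSCR were 3, 5 with TMM within each fraction, and 3 to 5 with 1 pellet left out, 4 to 7 in ASP shGRIN2D and 5 to 8 in ASP shDHPS, the lowest without replicate 1 of that condition. DESeq2 called 1 member for ASP shSCR minus ASP shDHPS. TMM within each fraction turned Ltbp3 to 0.0922 and Tgfbr3 to 0.0092 in ASP shSCR. Tgfbr3 in NoASP shSCR turned to −0.0435 with DESeq2 size factors and −0.0446 with DESeq2, and Tgfb1 for ASP shSCR minus ASP shDHPS to −0.0284 and −0.0287. With 1 pellet left out, log2 ratios that changed sign ranged from −0.24 to 0.0619 (Ltbp3) and −0.48 to 0.0243 (Tgfbr3) in ASP shSCR, −0.0809 to 0.17 (Tgfbr3) in NoASP shSCR, −0.0853 to 0.24 (Ltbp2) in ASP shGRIN2D and −1.12 to 0.28 (Tgfb2) in ASP shDHPS. Differences from NoASP shSCR ranged from −0.10 to 0.15 (Ltbp1), −0.15 to 0.50 (Tgfb1), −0.0334 to 0.33 (Tgfbr1), −0.53 to 0.0197 (Tgfbr3) and −0.68 to 0.29 (Tgfb2), those from ASP shGRIN2D from −0.0539 to 0.17 (Ltbp1), −0.18 to 0.47 (Tgfb1), −0.11 to 0.29 (Tgfbr1), −0.12 to 0.41 (Tgfbr3) and −0.39 to 0.42 (Tgfb2), and that from ASP shDHPS from −0.46 to 0.18 (Tgfb1). For ASP shDHPS minus ASP shGRIN2D the ranges were −0.10 to 0.23 (Ltbp2), −0.19 to 0.0121 (Tgfb3), −0.0502 to 0.34 (Ltbp3), −0.0386 to 0.10 (Tgfbr2) and −0.19 to 0.26 (Ltbp4). Polysomal Tgfb1 ranged from −0.0101 to 0.96 (ASP shSCR minus ASP shGRIN2D) and −0.0461 to 0.93 (minus ASP shDHPS). Counts limit Tgfb2 and Tgfbr3 most.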
